A study of Homo sapiens with 18 samples.

Results

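Claudins and tight junction genes were examined in bladder cancer cells by CAGE-seq, in which RNA is sequenced from its capped 5′ end, so that transcripts are counted at their start sites whatever their length. The group was set by gene symbol and comprised 10 genes, the claudins CLDN1, CLDN3, CLDN4, CLDN7, CLDN9, CLDN12 and CLDN23, occludin (OCLN), the scaffold protein ZO-1 (TJP1) and the adhesion molecule JAM-A (F11R). All 10 were among the 16575 genes of the deposited table, and all 10 reached 5 CPM (reads relative to the library total) in at least 1 library, as did 13022 genes in total. The 18 libraries came from CAL-29, HT-1376 and RT-112, which are established bladder carcinoma lines. Each line had been transduced with lentivirus in 2 rounds, WWOX (W) or a blank control (K) in the first and AP-2α (A), AP-2γ (C) or a blank control (K) in the second, which gave KK, WK, KA, WA, KC and WC as variants. WWOX is a tumour suppressor protein and the AP-2 factors are transcription factors. All variants, the double control KK included, had passed both transductions and selection with puromycin and then G418, the transgenes were driven by a CMV promoter, and each variant was represented by 1 library per line. A comparison of variants therefore rested on 3 lines, and a comparison of lines on libraries of 1 line each, so that the p-values of the latter measure the spread between transductants.

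Tight junctions seal the space between neighbouring epithelial cells near the apical surface. Claudins are membrane proteins with 4 transmembrane helices that polymerize into the strands of the junction, and the claudins present decide how tight a layer is and which ions pass. Occludin belongs to the MARVEL proteins of the strands, JAM-A is an immunoglobulin-like adhesion molecule beside them, and ZO-1 ties both to the actin cytoskeleton. In the urothelium, the lining of the bladder, these junctions take part in keeping urine out of the tissue.

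Libraries held between 13357102 and 17958572 reads on genes, and 1 read was worth 0.0526 to 0.0709 CPM. The library labelled CAL-29 KC correlated better with the libraries labelled HT-1376 (median r = 0.94) than with the others labelled CAL-29 (median r = 0.741), so it was kept apart and 17 libraries entered the comparisons of lines. The 3 lines also differed in the spread of their reads over genes, with a median gene at 4.71 to 5.72 CPM for RT-112, 6.25 to 9.42 CPM for HT-1376 and 8.1 to 15.33 CPM for CAL-29. For this reason differences between lines are given both as deposited and after scaling by trimmed mean of M-values (TMM). The identity of the cells was checked by 6 epithelial markers, of which 6 reached 5 CPM in every library. Of 9 urothelial markers, 7 reached 5 CPM in every RT-112 library, 3 in every HT-1376 library and 6 in every CAL-29 library compared. FOXA1, UPK1A, UPK3A and KRT20 were at 3 reads or fewer in all HT-1376 libraries, as was UPK3A in all RT-112 libraries. Others were high in HT-1376, with UPK1B at 269 to 946 CPM and GATA3 at 73.8 to 243 CPM. The sum of 4 mesenchymal markers ranged from 4.42 to 23.69 CPM for RT-112, 22.04 to 96.11 CPM for HT-1376 and 41.78 to 1011.89 CPM for CAL-29, where FN1 made up most of it, and its part in the differences between lines was not tested.

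Positions are those of GENCODE 44 on GRCh38. CLDN3 (chr7:73768997-73770270, minus strand) and CLDN4 (chr7:73799542-73832690, plus strand) are neighbours with 29271 bases between them. CLDN1 occupies chr3:190305707-190322446 on the minus strand, CLDN7 chr17:7259903-7263983 on the minus strand, CLDN9 chr16:3012923-3014505 on the plus strand and CLDN12 chr7:90383721-90513402 on the plus strand. CLDN12 overlaps GTPBP10 and CDK14 on its own strand and CLDN7 overlaps ELP5 on the other, and these 3 neighbours are in the table as well. OCLN spans chr5:69492292-69558104 on the plus strand, TJP1 chr15:29699367-29968915 on the minus strand and F11R chr1:160995211-161021343 on the minus strand. OCLN has a near-identical pseudogene copy on the same chromosome, so tags that map to both are uncertain.

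The promoters of 5 claudins that differ in level between lines or genes are shown for reference, each from 250 bases before to 50 bases after a RefSeq start site on GRCh38.p14, 5′ to 3′ on the strand of the gene. Capitals mark the AP-2 motif GCCNNNGGC, which reads the same on both strands, and the E-box CACCTG or CAGGTG, the same site on either strand, which Snail and ZEB repressors are known to bind. The 5 sequences are CLDN1 at chr3:190322397-190322696, CLDN3 at chr7:73770221-73770520, CLDN4 at chr7:73830746-73831045, the downstream start of CLDN7 at chr17:7262429-7262728 and CLDN12 at chr7:90403211-90403510.
CLDN1: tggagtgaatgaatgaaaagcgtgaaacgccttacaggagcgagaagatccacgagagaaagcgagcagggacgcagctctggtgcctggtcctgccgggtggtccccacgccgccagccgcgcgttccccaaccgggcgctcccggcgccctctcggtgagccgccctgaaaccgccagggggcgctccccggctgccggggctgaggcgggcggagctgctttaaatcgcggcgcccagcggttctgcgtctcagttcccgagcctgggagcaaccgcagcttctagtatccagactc
CLDN3: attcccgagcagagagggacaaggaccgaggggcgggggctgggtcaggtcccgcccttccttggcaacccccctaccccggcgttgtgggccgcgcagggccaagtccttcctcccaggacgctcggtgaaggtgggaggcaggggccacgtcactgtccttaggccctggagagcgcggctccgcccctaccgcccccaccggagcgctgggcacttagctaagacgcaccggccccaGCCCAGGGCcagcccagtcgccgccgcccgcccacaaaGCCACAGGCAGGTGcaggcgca
CLDN4: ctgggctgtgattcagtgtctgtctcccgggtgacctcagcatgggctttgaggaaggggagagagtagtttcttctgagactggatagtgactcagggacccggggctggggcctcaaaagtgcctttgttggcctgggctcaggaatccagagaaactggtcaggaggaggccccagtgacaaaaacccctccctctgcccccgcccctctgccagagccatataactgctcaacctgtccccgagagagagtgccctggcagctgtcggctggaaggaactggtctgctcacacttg
CLDN7: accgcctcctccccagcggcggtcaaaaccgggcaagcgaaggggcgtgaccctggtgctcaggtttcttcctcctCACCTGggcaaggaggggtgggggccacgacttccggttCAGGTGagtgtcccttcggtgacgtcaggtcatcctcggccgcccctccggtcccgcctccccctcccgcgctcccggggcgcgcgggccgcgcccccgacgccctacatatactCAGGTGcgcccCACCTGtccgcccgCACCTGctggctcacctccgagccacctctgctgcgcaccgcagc
CLDN12: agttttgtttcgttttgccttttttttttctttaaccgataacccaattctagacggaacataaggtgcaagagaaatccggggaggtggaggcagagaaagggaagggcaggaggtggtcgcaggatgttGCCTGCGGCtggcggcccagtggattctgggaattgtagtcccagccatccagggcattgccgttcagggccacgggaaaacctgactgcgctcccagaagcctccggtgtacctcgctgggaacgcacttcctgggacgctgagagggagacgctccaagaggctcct

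The AP-2 motif was found in 23.2% and the E-box in 20.6% of 35116 RefSeq promoters of this length. CLDN3 held 2 matches to the AP-2 motif, from -10 to -2 and from 29 to 37 relative to the start site, the second sharing 1 base with an E-box from 37 to 42. CLDN12 held 1, from -119 to -111. The downstream start of CLDN7 held 5 E-boxes, as did 0.094% of promoters at 5 or more, whereas its upstream start, CLDN1, CLDN4 and CLDN12 held none. Of 12 windows at 7 of the genes, 2 held the AP-2 motif and 5 an E-box, OCLN and TJP1 among the latter. These matches describe letters in the windows and not binding.

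Among the claudins, CLDN4, CLDN7 and CLDN1 supplied most transcripts in all lines. CLDN4, a claudin of tight epithelia, ranged from 300.4 to 539 CPM in RT-112 (median 374), from 146 to 297 CPM in HT-1376 (median 264), and measured 515 CPM in KK, 418 in KA, 406 in WK, 560.4 in WA and 227 in WC of CAL-29. The lowest value of RT-112 was just above the highest of HT-1376, and CAL-29 overlapped with both. CLDN7, which is also found along the lateral membrane, ranged from 222 to 404 CPM in RT-112 (median 262) and from 392 to 486 CPM in HT-1376 (median 407). In CAL-29 it measured 499 CPM in KK, 392 in KA, 310.2 in WK, 536 in WA and 259 in WC. The ranges of RT-112 and HT-1376 overlapped only at their edge, and CAL-29 spanned most of both. In HT-1376 CLDN7 was at 418 ± 35.4 CPM (SD, n = 6), with WK at 486 CPM and the other variants at 392 to 422 CPM.

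CLDN1, a claudin that is needed for the barrier of the skin, separated RT-112 from the other lines. It ranged from 20.3 to 39.4 CPM in RT-112 (median 30.5) and from 115 to 259 CPM in HT-1376 (median 160.3). In CAL-29 it measured 209 CPM in KK, 96.7 in KA, 280.1 in WK, 303 in WA and 164 in WC. All 6 libraries of RT-112 were below all libraries of the other lines, and HT-1376 and CAL-29 overlapped. The gap was plain in the make-up of the claudins, where CLDN1 took 4.29% ± 1.72 (SD, n = 6) of the summed CPM of the 7 claudins in RT-112, against 19.7% ± 5.21 (n = 6) for HT-1376 and 19.5% ± 6.72 (n = 5) for CAL-29. CLDN4 took 52.9% ± 2.06 of it in RT-112, against 27.8% ± 5.32 for HT-1376 and 38.5% ± 3.48 for CAL-29, and CLDN7 39.5% ± 2.31, 50.2% ± 6.25 and 36.5% ± 4.07. These shares do not depend on the scaling of a library. A share of CLDN4 above that of CLDN7 was seen in all 6 RT-112 libraries, and the reverse in all 6 HT-1376 libraries.

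**Figure D1:**
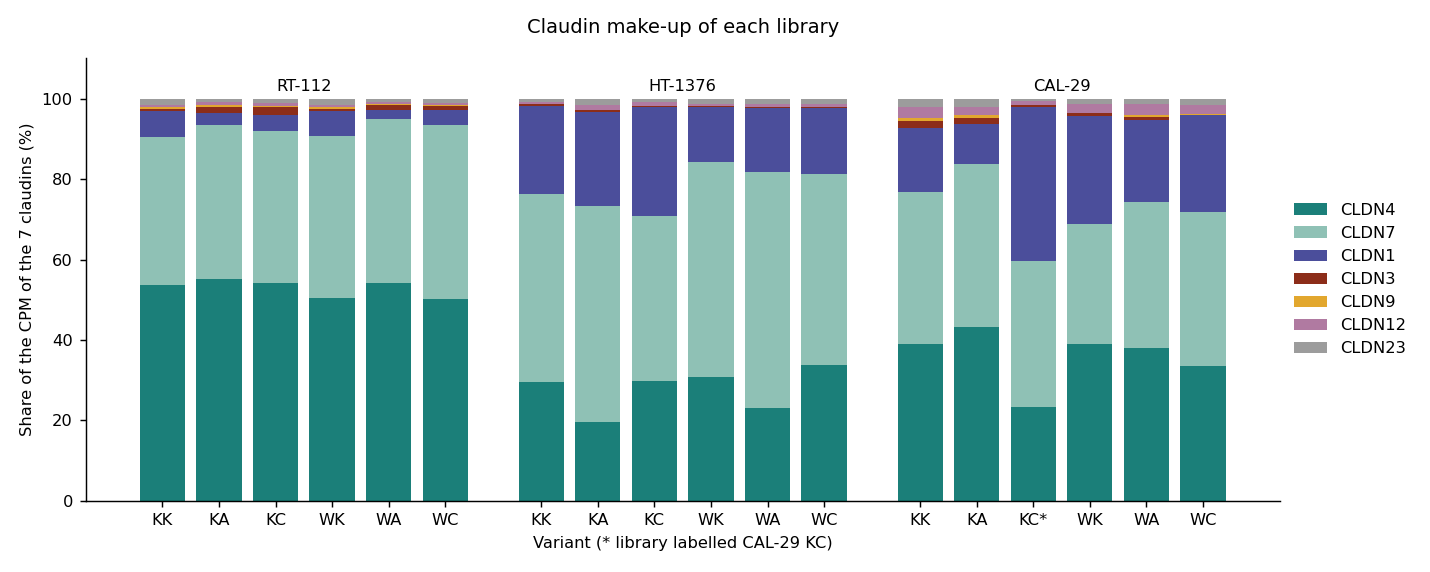
Share of each claudin in the summed CPM of the 7 claudins (%), 1 bar per library, with the 6 variants of each cell line side by side and the library labelled CAL-29 KC marked by an asterisk. CLDN4 and CLDN7 fill most of every bar, and CLDN1 takes 2.29% to 6.51% in RT-112 against 13.5% to 27.1% in HT-1376.

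The remaining claudins were present at low levels, so their values rest on fewer reads. CLDN3, a sealing claudin, ranged from 2.83 to 13.3 CPM in RT-112 (median 9.04) and from 1.09 to 3.95 CPM in HT-1376 (median 2.37), the latter from 17 to 60 reads. In CAL-29 it measured 23.5 CPM in KK, 13.7 in KA, 7.4 in WK, 10.9 in WA and 0.62 in WC, the last from 11 reads with a 95% counting interval of 0.309 to 1.11 CPM. The KK library thus held the most CLDN3 and the WC library the least of all 17 libraries. CLDN9, known from the inner ear, was at 2.57 to 4.42 CPM in RT-112 and at 9.47 CPM in KK, 7.19 in KA, 1.66 in WK, 6.6 in WA and 2.31 in WC of CAL-29. In HT-1376 it had 0 reads in KK, KC, WK and WA, which allows up to 0.172 to 0.213 CPM at 3 reads each, with 9 reads in KA and 15 in WC. Thus CLDN9 was at or under 0.82 CPM in HT-1376 and above that in all 11 libraries of RT-112 and CAL-29 compared.

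CLDN12 and CLDN23 are less studied members of the family. CLDN12 was at 2.88 to 5.2 CPM in RT-112, 5.42 to 9.36 CPM in HT-1376 and 14.1 to 39.3 CPM in CAL-29, without overlap as deposited. The gap between RT-112 and HT-1376 was narrow. Its nearest libraries had 93 reads (WA of RT-112) and 99 reads (WC of HT-1376), with 95% counting intervals of 4.2 to 6.37 and 4.41 to 6.6 CPM. With TMM these lines overlapped, at 6.66 in WA of RT-112 and 5.56 in KK of HT-1376. CLDN23 overlapped between RT-112 (6.1 to 9.77 CPM) and HT-1376 (6.31 to 11.8 CPM). In CAL-29 it measured 28.0 CPM in KK, 20.2 in KA, 12.98 in WK, 21.3 in WA and 11.2 in WC.

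Occludin and ZO-1 were highest in CAL-29 and varied widely there. OCLN ranged from 1.36 to 3.1 CPM in RT-112 (25 to 58 reads) and from 3.51 to 9.31 CPM in HT-1376, which did not overlap. In CAL-29 it measured 42.6 CPM in KK, 10.0 in KA, 9.17 in WK, 27.6 in WA and 4.44 in WC, so that WC and WK lay within the range of HT-1376. TJP1 ranged from 7.09 to 15.1 CPM in RT-112 and from 11.7 to 27.5 CPM in HT-1376, and measured 104 CPM in KK, 30.4 in KA, 34.6 in WK, 103 in WA and 20.4 in WC of CAL-29. F11R was at 109 ± 20.5 CPM (SD, n = 6) in RT-112, against 101 ± 20.4 CPM (n = 6) for HT-1376 and 158 ± 35.1 CPM (n = 5) for CAL-29.

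**Figure D2:**
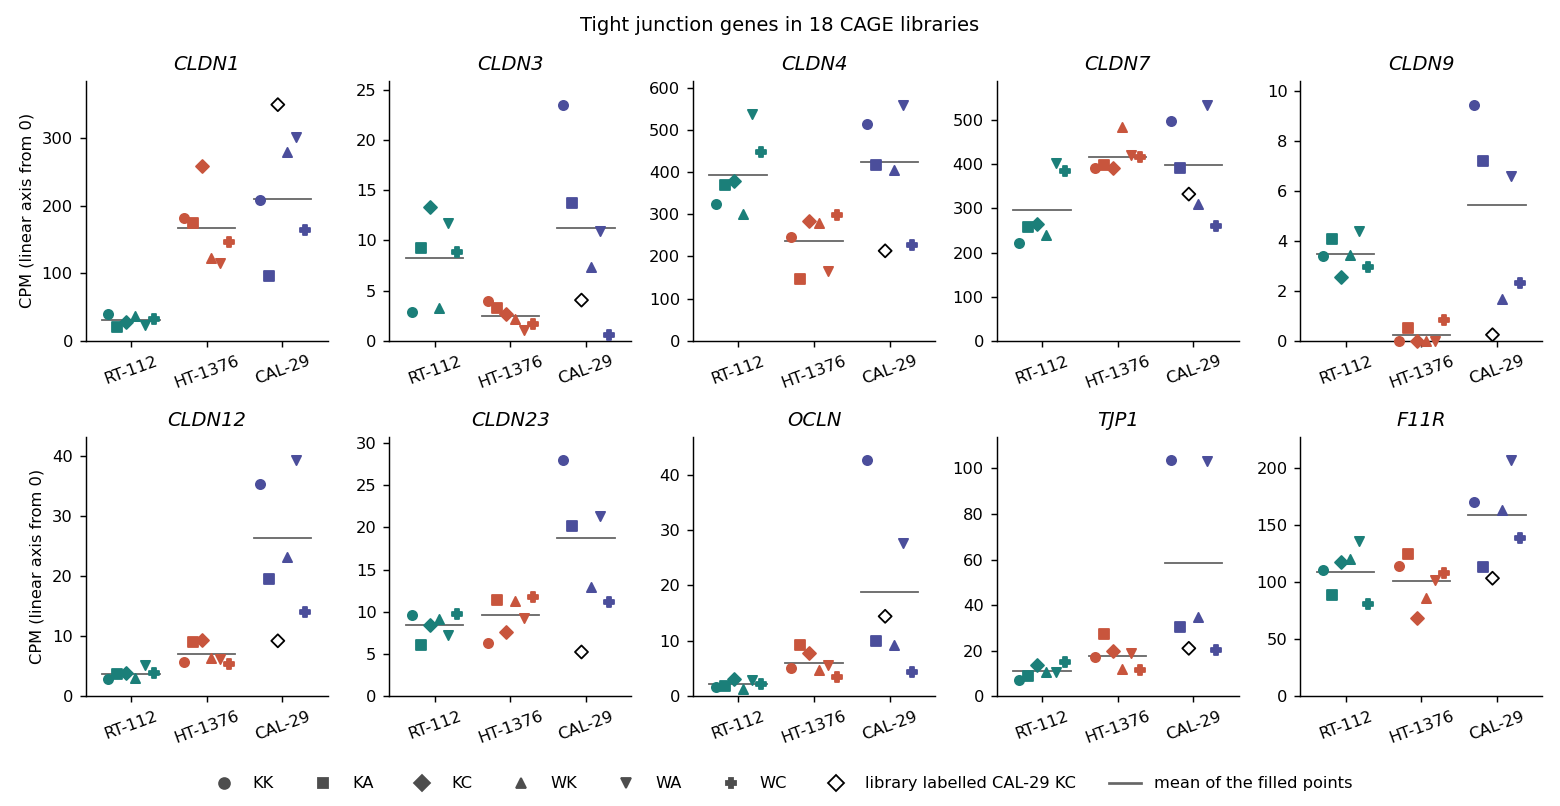
CPM of the 10 genes in the 18 libraries, each panel on its own linear axis from 0, with 1 symbol per variant, colours for the lines, an open diamond for the library labelled CAL-29 KC and a line at the mean of the filled points. CLDN1 is at 20.3 to 39.4 CPM in RT-112 and at 96.7 CPM or more in the other lines, CLDN9 is near 0 in HT-1376, and OCLN and TJP1 are highest in KK and WA of CAL-29.

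The differences between lines were tested in limma on log2(CPM + 0.5) with terms for line and variant, and the adjusted p is that of Benjamini-Hochberg over 13022 genes. Between RT-112 and HT-1376, 3 of the 10 genes were called higher in RT-112, as were 19.2% of all genes, and 4 were called lower, as were 42.7% of all genes. CLDN9 was higher in RT-112 by 2.57 on the log2 scale (SE 0.36, adjusted p 3.31e-05), CLDN3 by 1.45 (SE 0.56, adjusted p 0.0353) and CLDN4 by 0.76 (SE 0.25, adjusted p 0.018). CLDN1 was lower by 2.43 (log2 difference -2.43, SE 0.25, adjusted p 2.24e-06), or 5.41-fold. OCLN (-1.27, adjusted p 0.00816), CLDN12 (-0.81, adjusted p 0.00936) and CLDN7 (-0.53, adjusted p 0.028) were lower as well. CLDN23 (-0.17, 95% interval -0.72 to 0.39), TJP1 (-0.64, -1.40 to 0.13) and F11R (0.12, -0.26 to 0.50) did not pass, and their intervals leave room for differences of these sizes.

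Between RT-112 and CAL-29, 0 of 10 genes were called higher in RT-112, against 15.3% of all genes, and 6 were called lower, against 56.2%. CLDN1 (-2.78, SE 0.27, adjusted p 1.27e-06), CLDN12 (-2.61, SE 0.25, adjusted p 1.16e-06) and OCLN (-2.56, SE 0.39, adjusted p 5.99e-05) differed most, at 6.86-fold, 6.12-fold and 5.88-fold. TJP1 (-2.13, adjusted p 0.000216), CLDN23 (-1.03, adjusted p 0.00433) and F11R (-0.49, adjusted p 0.0307) were also lower in RT-112. CLDN3 (-0.19, 95% interval -1.47 to 1.09), CLDN4 (-0.10, -0.68 to 0.48), CLDN7 (-0.40, -0.84 to 0.05) and CLDN9 (-0.29, -1.12 to 0.54) did not pass.

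Between HT-1376 and CAL-29, 0 genes were called higher in HT-1376, against 17.6% of all genes, and 8 were called lower, against 43.4%. CLDN9 (-2.86, SE 0.39, adjusted p 3.27e-05), CLDN12 (-1.81, SE 0.25, adjusted p 4.75e-05) and CLDN3 (-1.64, SE 0.60, adjusted p 0.0282) differed most. TJP1 (-1.50, adjusted p 0.00428), OCLN (-1.28, adjusted p 0.0121), CLDN4 (-0.86, adjusted p 0.0136), CLDN23 (-0.86, adjusted p 0.016) and F11R (-0.61, adjusted p 0.0128) followed. CLDN1 (-0.34, 95% interval -0.93 to 0.24) and CLDN7 (0.14, -0.31 to 0.58) did not pass. CLDN9 reached 5 CPM in CAL-29 alone, so it could be tested only through the line in which it was highest. Nothing is drawn from its call against CAL-29 for this reason, here or below. The median log2 difference of the 10 genes was -0.35, -0.76 and -1.07 in these 3 comparisons, beside -0.43, -0.84 and -0.47 over all genes tested. The share of genes called was thus near that of all genes in the first 2 comparisons, and nothing is claimed for the group as a whole.

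The scaling of the libraries moved these results. With TMM the median log2 difference of all genes changed from -0.43 to -0.10, from -0.84 to -0.18 and from -0.47 to -0.12 in the 3 comparisons, and the shares of all genes called higher and lower became 27.9% and 31%, 30.9% and 38.6%, and 26.1% and 31%. CLDN1 lower in RT-112 (-2.08 and -2.06 with TMM), CLDN9 lower in HT-1376 (2.88 against RT-112 on the scale of RT-112 minus HT-1376, and -2.53 against CAL-29), CLDN12 and TJP1 higher in CAL-29 and OCLN in all 3 comparisons were called under either scaling. CLDN3 and CLDN4 higher in RT-112 than in HT-1376 were too (1.79 and 1.12 with TMM). In the first comparison CLDN7 (-0.17, adjusted p 0.453 with TMM) and CLDN12 (-0.48, adjusted p 0.0508) were lost and F11R became higher in RT-112 (0.48, adjusted p 0.0217). F11R was lower in RT-112 than in CAL-29 as deposited and 0.23 higher with TMM (adjusted p 0.253), and CLDN23 was lost there (-0.33, adjusted p 0.255). CLDN4, at -0.10 in that comparison as deposited, was called higher in RT-112 by DESeq2 (0.73, adjusted p 0.0188), as were 33.5% of all genes. CLDN3, CLDN4, CLDN7 and CLDN9, none of them called there under either scaling, turned from negative to positive with TMM (0.49, 0.62, 0.33 and 0.36). Against CAL-29, the calls of CLDN3, CLDN4, CLDN23 and F11R in HT-1376 were lost (adjusted p 0.0592, 0.131, 0.0991 and 0.246) and CLDN7 became higher in HT-1376 (0.50, adjusted p 0.0479).

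Several calls were also close to the threshold, as seen when 1 variant was left out of all lines. Without the WA libraries 3 of the 8 calls between HT-1376 and CAL-29 were left, CLDN9, CLDN12 and TJP1. Of all genes, 6543 were then called in place of 7944. CLDN3 (-1.38, adjusted p 0.11), OCLN (-1.07, adjusted p 0.0706) and F11R (-0.52, adjusted p 0.0686) kept their direction. Without the KK libraries 5 were left, beside 6710 of all genes called, and CLDN23 (-0.58) and OCLN (-0.87) were nearer to 0. Without the KA libraries 4 of the 7 calls between RT-112 and HT-1376 were left. CLDN3 at 1.47, CLDN4 at 0.64 and CLDN7 at -0.51 were no longer past the threshold. Of all genes, 8055 were called in this comparison as reported, and 7156 or more in each alternative. CLDN1, CLDN9 and OCLN between RT-112 and HT-1376, CLDN1, CLDN12, OCLN and TJP1 between RT-112 and CAL-29, and CLDN9, CLDN12 and TJP1 between HT-1376 and CAL-29 were called in each alternative run for these comparisons, other tools and left-out variants included. The call of CLDN9 against CAL-29 keeps the limit given above, since the gene passed the filter only through CAL-29.

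**Figure D3:**
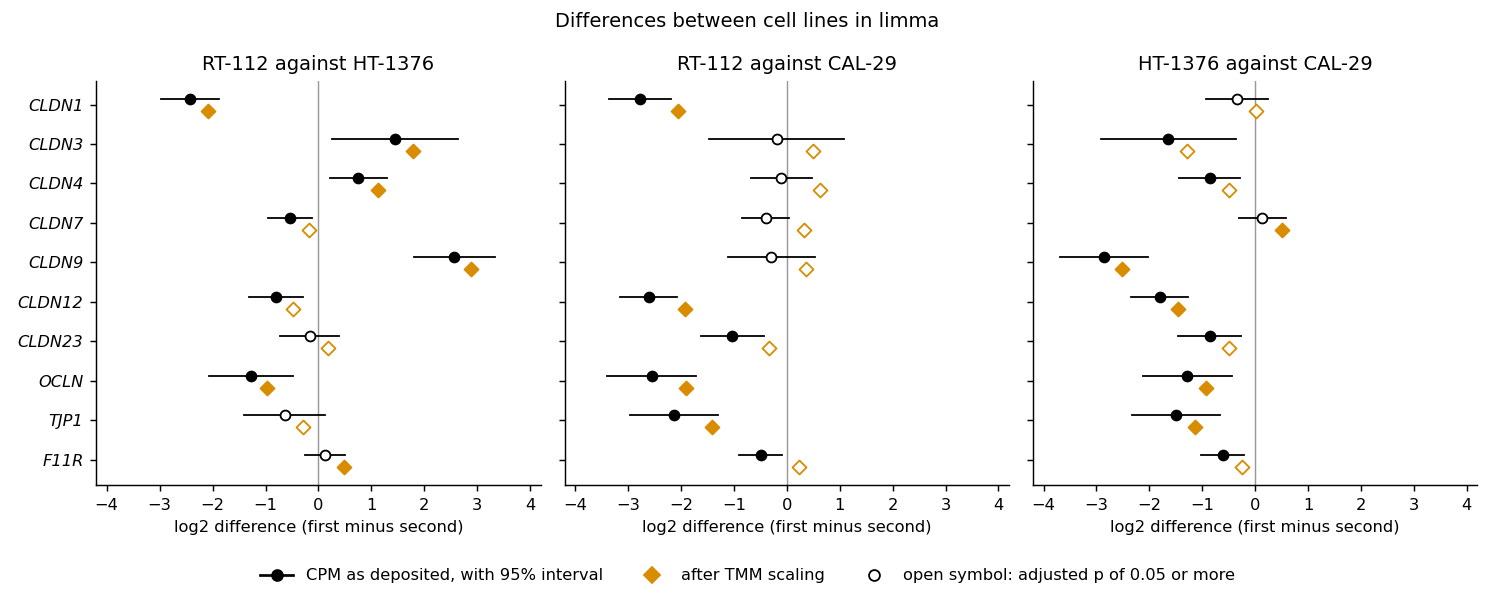
Log2 difference between cell lines for the 10 genes, 1 panel per pair of lines, as deposited (circles, with the 95% interval) and after TMM scaling (diamonds), with filled symbols for an adjusted p under 0.05. TMM moves the values to the right in each panel, CLDN1 is at -2.08 and -2.06 with it in the RT-112 panels, and CLDN3, CLDN4, CLDN7, CLDN9 and F11R change sign between RT-112 and CAL-29, CLDN1 between HT-1376 and CAL-29 and CLDN23 between RT-112 and HT-1376.

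Within CAL-29 the genes did not vary independently. As deposited, KK and WA were the 2 highest libraries for OCLN, TJP1, CLDN12, CLDN23, CLDN4, CLDN7 and F11R, whereas CLDN3 and CLDN9 were highest in KK and KA, and CLDN1 in WA and WK. WC was lowest for CLDN3, CLDN4, CLDN7, CLDN12, CLDN23, OCLN and TJP1. KK and WA also had the highest median gene (14.97 and 15.33 CPM, against 8.1 to 12.04 CPM in KA, WK and WC) and the highest TMM factors (1.475 and 1.511, against 1.031 to 1.318). After division by these factors TJP1 was still at 70.2 and 68.4 in KK and WA, against 19.8 to 26.3 in the other 3 libraries, and OCLN at 28.9 and 18.3 against 4.31 to 8.42. For CLDN12 the order held as well. For CLDN4 the scaled values of KK, KA and WA drew together at 349, 352 and 371. F11R in KK (116) was then below WK (124) and WC (135), CLDN23 in KA (16.97) above WA (14.1), and WK rather than WC was lowest for CLDN7 and CLDN23. The part of the library make-up in this pattern was not tested further.

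Over the 17 libraries OCLN, TJP1 and CLDN12 were the genes that resembled each other most, with r = 0.952 for OCLN and TJP1, 0.932 for TJP1 and CLDN12 and 0.924 for OCLN and CLDN12 on log2(CPM + 0.5). These libraries share 3 lines and their depth, so the mean of each line was subtracted, after which the values were 0.918, 0.859 and 0.907. In RT-112 and HT-1376 alone (12 libraries, line means subtracted) they were 0.752, 0.619 and 0.853. By line they were 0.503, 0.449 and 0.743 in RT-112 and 0.913, 0.735 and 0.926 in HT-1376 (6 libraries each). The neighbours CLDN3 and CLDN4 had r = 0.79 over 17 libraries and 0.658 within lines, and 0.383 within RT-112 and HT-1376 (0.746 in RT-112 and 0.045 in HT-1376). CLDN1 had r from -0.207 to 0.409 with the other genes within lines. These correlations are descriptions without a test.

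**Figure D4:**
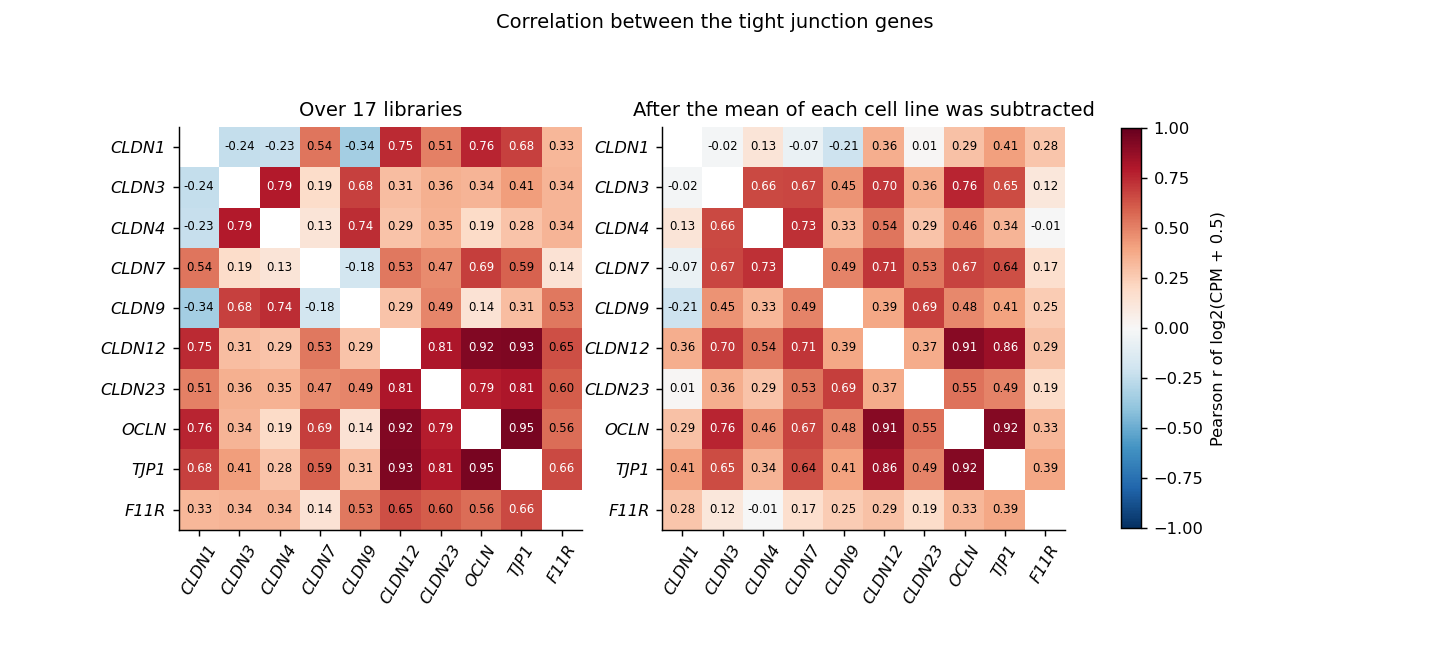
Pearson r of log2(CPM + 0.5) between each pair of the 10 genes over 17 libraries (left) and after the mean of each cell line was subtracted (right), red for positive and blue for negative values. OCLN, TJP1 and CLDN12 form the darkest block in both panels, with r from 0.859 to 0.918 on the right.

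The library labelled CAL-29 KC differed from the others labelled CAL-29 in these genes. It held 0.24 CPM of CLDN9 (4 reads), within the 0 to 0.82 CPM of HT-1376 and below the 1.66 to 9.47 CPM of CAL-29. CLDN12 at 9.24 CPM, CLDN4 at 213 CPM and F11R at 103 CPM were likewise inside the range of HT-1376 and below that of CAL-29. CLDN3, CLDN7 and OCLN, at 4.05, 333 and 14.4 CPM, were inside the range of CAL-29 and outside that of HT-1376. For CLDN3 the highest HT-1376 value was 3.95 CPM, within its 95% counting interval of 3.15 to 5.14 CPM in this library. TJP1, at 21.0 CPM, was inside both ranges. CLDN1 at 350.2 CPM was above both ranges and CLDN23 at 5.25 CPM below both. In all, 4 genes lay only within the range of HT-1376 and 3 only within that of CAL-29. The same count was not made over all genes, so nothing is drawn from these numbers.

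The variants were compared with KK over the 3 lines to ask whether WWOX, AP-2α, AP-2γ or their combination changed these genes. No gene of the group was called in WK, WA, WC, KA or KC against KK (limma with Benjamini-Hochberg adjustment, 0% of all genes called in each), none had an unadjusted p under 0.05, and none was called by edgeR, DESeq2 or limma-voom, of which DESeq2 called 2 to 9 of all genes per comparison. The SE of a gene in this fit, which has no term for the line, ranged from 0.35 to 1.27, so that differences between lines of several-fold enter the error. CLDN1, which differed widely between lines, had a 95% interval from -2.60 to 2.45 in WK/KK, while that of F11R ran from -0.87 to 0.64. With the line as a replicate block, 0 of the 10 genes were called as well. The largest mean differences were those of CLDN9 in KC/KK (-1.36, SE 1.27) and CLDN3 in WC/KK (-1.33, SE 1.02), the first of which contains the library labelled CAL-29 KC. CLDN9 differed by only -0.34 in RT-112 and was at 0 reads in both libraries of HT-1376.

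In WC/KK all 10 genes had a negative mean difference, from -1.33 to -0.02, beside a median of -0.25 over all genes, as they did in WK/KK (-0.83 to -0.08). With TMM CLDN4 (0.09), CLDN7 (0.21) and CLDN23 (0.09) were positive in WC/KK. The distance between WC and KK was widest in CAL-29, in which CLDN3 went from 23.5 to 0.62 CPM, OCLN from 42.6 to 4.44 CPM and TJP1 from 104 to 20.4 CPM. In RT-112 the same genes went from 2.83 to 8.86 CPM, from 1.72 to 2.17 CPM and from 7.09 to 15.1 CPM. In HT-1376 they went from 3.95 to 1.64 CPM, from 5.13 to 3.51 CPM and from 17.2 to 11.7 CPM. For these 3 genes WC was thus above KK in RT-112 and below it in HT-1376 and CAL-29, with 1 library on each side in each line. For OCLN the 95% counting intervals of KK and WC overlapped in RT-112 (1.17 to 2.44 and 1.52 to 3.01 CPM). They also overlapped in HT-1376 (4.06 to 6.41 and 2.7 to 4.48 CPM), so its direction in these 2 lines is uncertain.

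**Figure D5:**
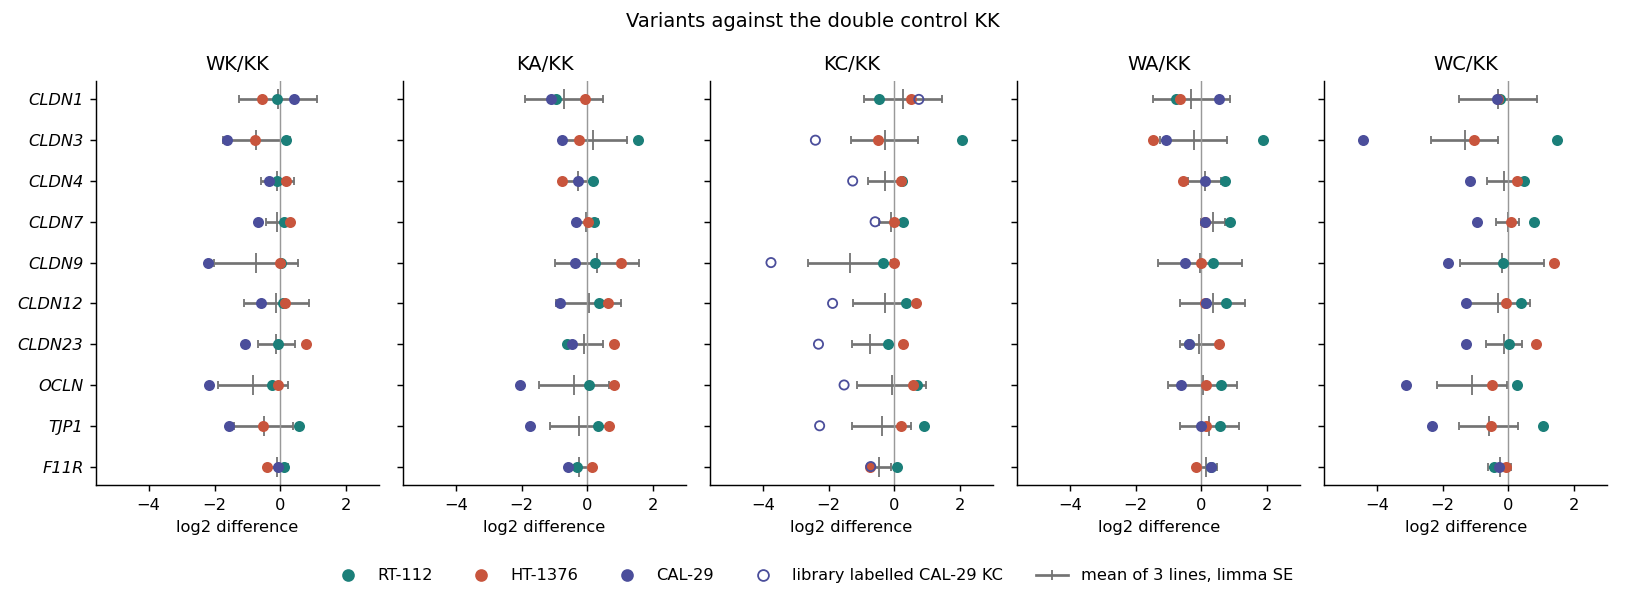
Log2 difference of each variant to KK for the 10 genes, with 1 point per cell line (open for the library labelled CAL-29 KC) and the mean of the 3 lines with its limma SE as a bar. The lines scatter around 0 in most rows, and the point of CAL-29 lies far to the left for CLDN3, OCLN and TJP1 in WC/KK.

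When line, WWOX and second transduction were fitted together over 17 libraries, the errors were smaller and again no gene of the group was called, nor any of all genes (0% called for WWOX, AP-2α and AP-2γ). None of the 10 had an unadjusted p under 0.05, and none was called by edgeR, DESeq2 or limma-voom. Of all genes these tools called 16, 225 and 70 for WWOX, 1, 1 and 0 for AP-2α, and 2, 12 and 0 for AP-2γ. The effect of WWOX was largest for CLDN3 (-0.83, 95% interval -1.81 to 0.14, adjusted p 0.457) and OCLN (-0.47, -1.20 to 0.25), both lower with WWOX in 6 of 8 pairs of libraries that differed in WWOX alone. CLDN7 was higher in 7 of 8 such pairs, with an effect of 0.12 (-0.22 to 0.47), the exception being WK/KK in CAL-29. CLDN1 had an effect of 0.0004, with 4 pairs in each direction. The effect of AP-2α was largest for CLDN9 (0.49, -0.28 to 1.25) and CLDN1 (-0.46, -1.01 to 0.08), which was lower in 5 of 6 pairs. The effects of AP-2γ ranged from -0.28 for CLDN3 to 0.05 for CLDN9, and the interval of CLDN3 ran from -1.50 to 0.93.

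CLDN3 illustrates how the lines differed. In RT-112 it was at 2.83 and 3.27 CPM in KK and WK, and at 9.21, 13.3, 11.7 and 8.86 CPM in KA, KC, WA and WC, so that the 4 libraries with an AP-2 factor were all above the 2 without. In HT-1376 the 4 libraries with an AP-2 factor were at 1.09 to 3.23 CPM. Each was below the library with a blank second transduction and the same first one (3.95 CPM in KK, 2.12 CPM in WK). However, the 95% counting intervals overlapped in each of these HT-1376 pairs. They were 2.45 to 4.19 CPM in KA and 3.01 to 5.08 CPM in KK, and 0.633 to 1.74 CPM in WA and 1.49 to 2.92 CPM in WK. In CAL-29 KA and WC were below, and WA above, their counterparts. Whether the AP-2 factors differed between lines in CLDN3 was not tested, and the pairs within a line share KK and WK.

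WWOX was also fitted within each line, in which case no gene of the group was called in RT-112 (0% of all genes called), HT-1376 (8.59%) or CAL-29 (0.591%), and 0, 1 and 3 of the 10 had an unadjusted p under 0.05. In HT-1376 the gene with the smallest p was CLDN1 (-0.67, SE 0.29, adjusted p 0.159), which was lower with WWOX in all 3 pairs: 123 against 182 CPM, 115 against 175 CPM and 146 against 259 CPM. The WWOX libraries of HT-1376 differed in other ways too. For 4 markers of other cell types (COL1A1, COL1A2, ACTA2 and CD68) the summed level was 51.1 to 70.36 CPM with WWOX. Without WWOX it was 7.24 to 15.45 CPM. All 4 were called higher, and the part of this in CLDN1 was not tested. COL1A2 reached 5 CPM in HT-1376 alone among the libraries compared, so nothing is drawn from its call. Among junction genes and their regulators OVOL1 (2.17) and PARD6G (1.66) were called higher and GRHL2 (-1.21) and AMOTL2 (-1.04) lower with WWOX in HT-1376. In CAL-29 CLDN1 was higher with WWOX in both pairs, 280.1 against 209 CPM and 303 against 96.7 CPM (0.75, SE 0.33, adjusted p 0.371). The difference of the effect between these lines was -1.41 (SE 0.44, adjusted p 0.0877), which did not pass, beside 3.85% of all genes called, and DESeq2 on the reads recovered from the CPM called it (-1.20, adjusted p 0.0348) along with 8.09% of all genes. CLDN3 and CLDN9 had the other unadjusted p under 0.05 in CAL-29 (-1.88 and -1.29, adjusted p 0.385 and 0.314). Without the libraries with AP-2α, OCLN (-2.68, adjusted p 0.0376) and TJP1 (-2.02, adjusted p 0.045) were called lower with WWOX in CAL-29, as were 4.27% of all genes. KK, WK and WC were then left, so that this rests on 1 library without WWOX. No gene of the group was called in the difference between RT-112 and HT-1376, against 1.27% of all genes, or between RT-112 and CAL-29, against 0.276%. The overexpressed genes themselves were a weak check of the labels, since tags from a vector need not be counted with the native gene, and WWOX in W against K libraries of the same second transduction ranged from 0.713 to 0.858 times in RT-112 and from 0.778 to 1.36 times in HT-1376, against 2.43 and 1.35 times in CAL-29.

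The other genes of the junction were taken from lists made from general knowledge. Of 17 further claudins, 5 were in the table and 2 reached 5 CPM, both in CAL-29 alone, so that they could be tested only through the line in which they were highest. CLDN11, the claudin of myelin and testis, was at 0 reads in all RT-112 libraries, at up to 1.28 CPM in HT-1376 and at 0.55 to 5.83 CPM in CAL-29, and CLDN16, a claudin of kidney tubules, at up to 0.17, 1.25 and 5.25 CPM. Nothing is drawn from their tests for this reason. Of 7 further membrane proteins tested, 3 were called higher and 3 lower in RT-112 than in HT-1376, 1 and 3 in RT-112 against CAL-29, and 1 and 3 in HT-1376 against CAL-29. With TMM these counts were 3 and 2, 3 and 2, and 2 and 3, and such small counts are not set apart from the shares of all genes, which were 19.2% and 42.7%, 15.3% and 56.2%, and 17.6% and 43.4% as deposited. ILDR1, an angulin of the corners where 3 cells meet, was at 25.3 to 52.8 CPM in CAL-29, 1.15 to 4.89 CPM in HT-1376 and up to 0.22 CPM in RT-112. It also reached 5 CPM in CAL-29 alone among the libraries compared, so nothing is drawn from its test. Tricellulin (MARVELD2), which is found at the same corners, was highest in CAL-29 too (-2.11 against it in RT-112, and -1.07 in HT-1376). ESAM, a JAM-like molecule of endothelium, was highest in RT-112 with 20.7 to 29.1 CPM, and CXADR, another relative of JAM-A, was lowest in HT-1376 with 0.39 to 6.19 CPM.

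Of 22 further scaffold and polarity proteins tested, 5 were called higher and 10 lower in RT-112 than in HT-1376, 0 and 18 in RT-112 against CAL-29, and 2 and 13 in HT-1376 against CAL-29. Of all genes as deposited, 19.2% and 42.7%, 15.3% and 56.2%, and 17.6% and 43.4% were called. With TMM the counts were 6 and 8, 2 and 12, and 4 and 11, beside 27.9% and 31%, 30.9% and 38.6%, and 26.1% and 31% of all genes. The median log2 differences of these 22 genes as deposited were -0.47, -1.46 and -0.82, beside -0.43, -0.84 and -0.47 over all genes. PATJ, PALS1 and MPDZ, scaffolds that bind claudins or polarity proteins, were among those lower than in CAL-29, with differences of -2.21 and -2.19 for PATJ and PALS1 in RT-112 and of -2.34 and -2.84 for PATJ and MPDZ in HT-1376. TJP3 (ZO-3) was higher in RT-112 than in HT-1376 by 2.26 (SE 0.51, adjusted p 0.00158), unlike ZO-1. AMOTL1 and AMOT, angiomotins that bind the polarity complex, were lower in RT-112 than in HT-1376 (-3.45 and -3.86). Of 10 transcription factors with known junction targets, 3 were called higher and 2 lower in RT-112 than in HT-1376, 1 and 6 in RT-112 against CAL-29, and 1 and 5 in HT-1376 against CAL-29 (6 and 2, 2 and 2, and 2 and 5 with TMM). The shares of all genes as deposited were 19.2% and 42.7%, 15.3% and 56.2%, and 17.6% and 43.4%. With TMM they were those given above, and nothing is claimed from such small counts. Among them, ELF3 (1.91) and KLF5 (1.27) were higher in RT-112 than in HT-1376 and lower in HT-1376 than in CAL-29 (-2.04 and -2.09). GRHL2, an activator of claudin genes, was lower in HT-1376 (-1.68) and RT-112 (-1.18) than in CAL-29, of which the second was lost with TMM (-0.46, adjusted p 0.165). TWIST1, a repressor of epithelial genes, had no reads in RT-112 and was at 4.74 to 26.4 CPM in HT-1376, against 1.8 to 4.04 CPM in CAL-29. Among the libraries compared, MPDZ reached 5 CPM in CAL-29 alone, and AMOT and TWIST1 in HT-1376 alone. These genes could be tested only through the line in which they were highest, so nothing is drawn from their tests.

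The genes of the whole table with the highest r to each member over 17 libraries were listed as a description. CLDN1 was closest to ITGB8 and GALC (r = 0.976 each), OCLN to OSBPL9 and NGLY1 (0.98 each) and TJP1 to FZD3 (0.98) and ASAP2 (0.978). ZNF140 was among the closest to CLDN12 (0.982). CLDN9 was closest to ACOT8 (0.966) and SIRT2 (0.962), CLDN3 to CRACR2B (0.932) and FAM86HP (0.897), CLDN23 to ZNF737 (0.93) and CATSPER2P1 (0.919), F11R to TAF8 (0.916) and TM9SF4 (0.888), CLDN4 to SYTL1 (0.891) and MMP24OS (0.886) and CLDN7 to MIR3189 (0.858) and CPEB2 (0.857). With the line means subtracted, TJP1 was closest to DLG1 (0.961), itself a junctional scaffold, and RFLNA (0.957), OCLN to EFL1 (0.97) and TTC27 (0.961), CLDN12 to SPAG9 (0.97) and BDP1 (0.955), and CLDN3 to DMGDH (0.905) and CRACR2B (0.904). For CLDN7 these were SCAP (0.917) and HM13 (0.906), for CLDN4 GPR108 and MIR6791 (0.911 each), for F11R PATL1 (0.899) and ZNF384 (0.852), for CLDN23 SBK1 (0.895) and TBC1D16 (0.862), for CLDN9 ZNF114 (0.89) and ZFAND2A (0.847), and for CLDN1 DOCK1 (0.886) and ZBTB1 (0.847).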

How the data were processed

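CAGE-seq libraries of 18 transductants of 3 bladder cancer lines were analysed. The authors mapped the tags to hg38 with BWA, passed those still unmapped to HISAT2 2.0.5, clustered the 5′ ends and deposited values in CPM for 16575 genes. The annotation and the rule by which clusters were assigned to genes are not given in the sources used here. Ensembl IDs were matched to symbols by GENCODE 44, with 16553 matched. The deposited CPM values were whole multiples of 1 read for 99.97% to 99.99% of values within a tolerance of 0.0051 CPM, and the counts so recovered gave the depth, the counting intervals and the count-based alternatives. Intervals and the limit of 3 reads cover counting error only.

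Genes with 5 CPM in at least 1 library (13022) were tested with limma 3.58.1 in R 4.3.3 on log2(CPM + 0.5), and p-values were adjusted after Benjamini and Hochberg over all of them, with a threshold of 0.05. Differences on this scale understate changes of low genes. Variants were compared with KK over 3 lines without a block, as in the study's methods. Lines, WWOX and the second transduction were fitted over 17 libraries, without the library labelled CAL-29 KC. Same-numbered libraries of different variants are the same cell line, so the replicate numbers pair the samples, and the blocked fit is an alternative. TMM scaling, edgeR 4.0.16, DESeq2 1.42.0, limma-voom, other filters and pseudocounts and left-out libraries were the other alternatives. The scripts were tested on simulated data. The 10 genes and all lists were chosen with earlier results of these data known. From each other list up to 4 genes per comparison with the largest differences among those called could be named, and the genes most alike to a member were the 2 with the highest r, of which 1 is not reported here. Promoters came from RefSeq (GRCh38.p14), and figures were drawn with matplotlib 3.10.9.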

Additional observations from a re-analysis of the deposited data

Results flagged for a closer look

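CLDN7 in HT-1376 was at 485.61 CPM in WK, apart from the other 5 libraries at 391.97 to 421.52 CPM (gap over range 0.684). Of 30 groups of a gene in a line tested in this way, 1 was marked, and chance marks about 1 in 20. For CLDN3, the 4 pairs of libraries with AP-2α or AP-2γ against the blank second transduction were all positive in RT-112 (median log2 difference 1.62, range 1.31 to 2.05) and all negative in HT-1376 (median -0.40, range -0.72 to -0.26). This difference between lines was not tested, the pairs share KK and WK, and it was 1 of 30 such comparisons of a gene between lines. In HT-1376 the counting intervals of CLDN3 overlapped in each pair, so the negative direction there is uncertain.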

How the results depend on the processing

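Of 2310 values of single genes under an alternative, 248 had another sign than as reported. Of these, 243 were called under neither setting and 183 of the 243 differed by less than 1 SE, so that directions of uncalled genes should not be read. A call was lost in 51 cases and gained in 12 with the direction kept, and in 5 a called value reversed. The 5 were between RT-112 and CAL-29, where F11R was 0.23 with TMM, 0.27 with edgeR, 0.26 with limma-voom and 0.37 with DESeq2, and CLDN4 was 0.73 with DESeq2. Between HT-1376 and CAL-29, 5 genes were called with TMM and 5 with edgeR in place of 8, and 3 to 8 with 1 variant left out. Between RT-112 and HT-1376 4 to 7 were called with 1 variant left out. Of all genes tested, the alternatives called 6543 to 9564 in the first of these comparisons and 7156 to 9737 in the second. For WWOX in CAL-29 0 to 2 were called with libraries left out (2 without AP-2α), and for the difference of WWOX between HT-1376 and CAL-29 2 were called by DESeq2, CLDN1 and CLDN23, beside 776 and 1054 of 13022 genes in these 2 settings. These TMM, edgeR, limma-voom and DESeq2 fits rescale the libraries. The causes of the other changes were not tested. With the replicate block, which pairs the libraries of a line, 0 of the 10 genes were called in each comparison with KK, as without it, and it changed no other call. This held without the library labelled CAL-29 KC and with edgeR and limma-voom in that blocked fit, 2 settings chosen after seeing the data. With 3 lines per variant, differences below several-fold could not be detected for most of these genes in the unblocked fit. CLDN9, CLDN12 and OCLN rest on under 100 reads in each RT-112 library.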
